A study of Mus musculus with 8 samples.

Results

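Serotonin and dopamine receptor transcripts were measured in the hippocampus of adult male Muta Mouse, a transgenic mouse used to score mutations, after oral benzo[a]pyrene (BaP). The set holds 10 genes given by symbol, which are 7 serotonin receptors (*Htr1a*, *Htr1b*, *Htr2a*, *Htr2c*, *Htr3a*, *Htr4* and *Htr7*) and 3 dopamine receptors (*Drd1*, *Drd2* and *Drd5*), of 20660 named genes on the array. Their 13 probes were found through the RefSeq accession of each probe. No receptor gene passed the threshold used for the whole array, an adjusted p of 0.05 with a fold change of 1.5. The receptor with the lowest p was *Drd5*, whose mean in BaP-exposed mice lay 0.45 above that in control mice on the log2 scale, or 1.37-fold, and *Htr7* was the receptor lower by the most, at -0.31.

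Serotonin reaches the hippocampus from the raphe nuclei and dopamine from the midbrain, and dopamine there can also be released by fibers of the locus coeruleus. The receptors differ in how they signal. *Htr1a* and *Htr1b* encode receptors that couple to Gi proteins and lower cyclic AMP, *Htr2a* and *Htr2c* encode Gq-coupled receptors that act through phospholipase C, and *Htr4* and *Htr7* encode receptors that raise cyclic AMP through Gs. *Htr3a* is the exception, since it encodes a subunit of an ion channel opened by serotonin. *Drd1* and *Drd5* encode the D1-like receptors, which raise cyclic AMP, and *Drd2* encodes a D2-like receptor, which lowers it.

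Both groups were males of 9 weeks of age that were gavaged on 3 consecutive days, the BaP-exposed mice with 70 mg/kg bw per day in olive oil and the control mice with the olive oil. Hippocampi were taken 24 hr after the final gavage, and 4 of the 5 mice dosed in each group were arrayed on the slide described here. Cy5 carried the sample and Cy3 a universal mouse reference RNA on all arrays, so a value below is the log2 ratio of a mouse's hippocampus to that reference. Ratios to the reference can be compared between mice for one probe and not between probes. For the 4 arrays in row 2 of the slide, the sample title gives one group and the source name the other. Groups follow the titles here, with which the mouse numbers in the labels go (27 to 30 for control and 71 to 75 for BaP-exposed mice). Both labels name the same group in row 1, so the log2 difference within each row is given for each tested receptor probe. Per array, the median Cy5 signal was 108 to 174 over a background of 67 to 71, and 56.6% to 67.4% of spots stood well above it. Outlier spots numbered 1483 for control mouse 1 and 310 to 371 for the other mice.

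RefSeq promoters (assembly GRCm38.p6, from 250 bases before to 50 bases after the start) were given for 8 of the 10 genes. These were searched on both strands for GCGTG, the core letters of the site bound by the aryl hydrocarbon receptor, which BaP activates. The letters were found in 2 of the 9 promoters given for these genes, and in 32.4% of all 32851 promoters searched. The 2 were those of *Drd5* and *Htr7*, which are shown because they hold a match. No match was found in the promoters given for *Htr1a*, *Htr1b*, *Htr2a*, *Htr2c*, *Drd1* and *Drd2*. *Drd5* and *Htr7* also had the lowest p in each direction, but neither passed the threshold. Whether the aryl hydrocarbon receptor acts on either gene was not tested. The paper reports that *Cyp1a1*, *Cyp1b1* and *Nqo1*, which it calls classical targets of that receptor, were unaffected in the hippocampus. Each sequence is written 5′ to 3′ on the strand of its gene, with the match in capitals. The *Drd5* promoter lies at chr5:38319259-38319558 on the plus strand, with the match at -238 from the start. The *Htr7* promoter lies at chr19:36057311-36057610 on the minus strand, with the match at -91, where it reads CACGC because it is on the opposite strand.
Drd5 promoter: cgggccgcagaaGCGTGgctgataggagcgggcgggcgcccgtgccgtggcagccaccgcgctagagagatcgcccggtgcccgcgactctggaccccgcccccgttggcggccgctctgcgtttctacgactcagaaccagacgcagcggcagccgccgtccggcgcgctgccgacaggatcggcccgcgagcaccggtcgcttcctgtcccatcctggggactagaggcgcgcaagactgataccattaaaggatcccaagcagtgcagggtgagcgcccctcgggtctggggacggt
Htr7 promoter: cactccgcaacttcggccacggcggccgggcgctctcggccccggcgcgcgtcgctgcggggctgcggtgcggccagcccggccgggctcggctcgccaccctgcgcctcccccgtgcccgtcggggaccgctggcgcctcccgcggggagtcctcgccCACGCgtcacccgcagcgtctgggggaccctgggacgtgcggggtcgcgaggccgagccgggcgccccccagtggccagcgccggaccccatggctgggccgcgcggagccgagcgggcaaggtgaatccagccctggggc

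The tissue label was checked against markers of brain regions. Averaged over 7 markers of hippocampal neurons, the log2 ratio was 3.43 to 3.64 in control mice and 3.49 to 3.97 in BaP-exposed mice (difference 0.27, exact permutation test, 2-sided, p = 0.114). Of the 9 markers listed, *Iyd* was not well above background on any array, and *Grik4*, which had no value for control mouse 1, was left out of the average. *Grik4* had a log2 difference of -0.65, opposite in sign to that of the average. Of the 7 averaged, *Dsp* (1.02) and *C1ql2* (0.56) had the largest log2 differences. *Prox1*, *Neurod6* and *Spink8* had 0.21, 0.16 and 0.08, and *Fibcd1* and *Neurod2* had -0.03 and -0.12. Over the 8 tested markers, 5 had a higher and 3 a lower mean in BaP-exposed mice, where 49.5% of all tested probes were higher. Of these 8, 2 (25%, against 8.7% of all probes) had an unadjusted p under 0.05 in limma, *Dsp* and *Grik4*. *Neurod6*, a transcription factor of excitatory hippocampal neurons, had a mean of 6.22 in control and 6.39 in BaP-exposed mice. The choroid plexus is an epithelium that lies against the hippocampus and carries much *Htr2c*, and its 17 markers varied widely between the mice. Their mean log2 ratio was 1.29 to 3.09 in control mice and 0.79 to 4.28 in BaP-exposed mice, of which mice 2 to 4 were above all control mice and mouse 1 below them. All 17 had a higher mean in BaP-exposed mice, as did 49.5% of all tested probes, and 0 of them had an unadjusted p under 0.05 in limma, as 8.7% of all probes did. The group means of these averages differed by 0.86 (exact permutation test, 2-sided, p = 0.343). In a bulk sample, fewer cells of a type and less RNA per cell cannot be told apart.

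Of the 13 probes, 10 from 9 genes were tested, and the other 3 (the single probe of *Htr1b*, 1 of 3 for *Htr2c* and 1 of 2 for *Htr4*) were well above background in Cy5 on fewer than 4 of the 8 arrays. The untested *Htr2c* and *Htr4* probes were so on 1 and 0 arrays. In Cy3, the reference channel, the *Drd2* probe was well above background on 8 arrays. The other tested probes were so in Cy3 on 0 to 3 arrays, so most of their ratios have a reference signal near background. The SD within a group ran from 0.019 to 0.51 over the tested genes. Among the 9 genes, 7 had a higher and 2 a lower mean in BaP-exposed mice, where 49.5% of all tested probes were higher. With each array centred on its median in place of loess, 83.0% of all probes were higher, by a median of 0.17, and 4 of the 9 receptor genes lay above that median, *Drd5* among them at 0.49. The median log2 difference of the 9 genes was 0.10, against -0.0016 over all tested probes. In limma's test adjusted over 32598 probes, 0 receptor genes passed the threshold, as did 0.0092% of all probes, and 0 passed in the gene-wise F test or in limma's robust fit. The adjusted p of the receptors from limma ran from 0.497 to 0.932. *Drd5* was the 1 receptor gene with an unadjusted p under 0.05 in limma, while 8.7% of all probes had one, 4.66% with a higher and 4.04% with a lower mean in BaP-exposed mice. None of the 9 genes separated the 4 control from the 4 BaP-exposed mice without overlap, as 5.07% of all probes did. The 95% intervals of the receptor genes reached from -0.69 to 0.75 on the log2 scale.

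**Figure D1:**
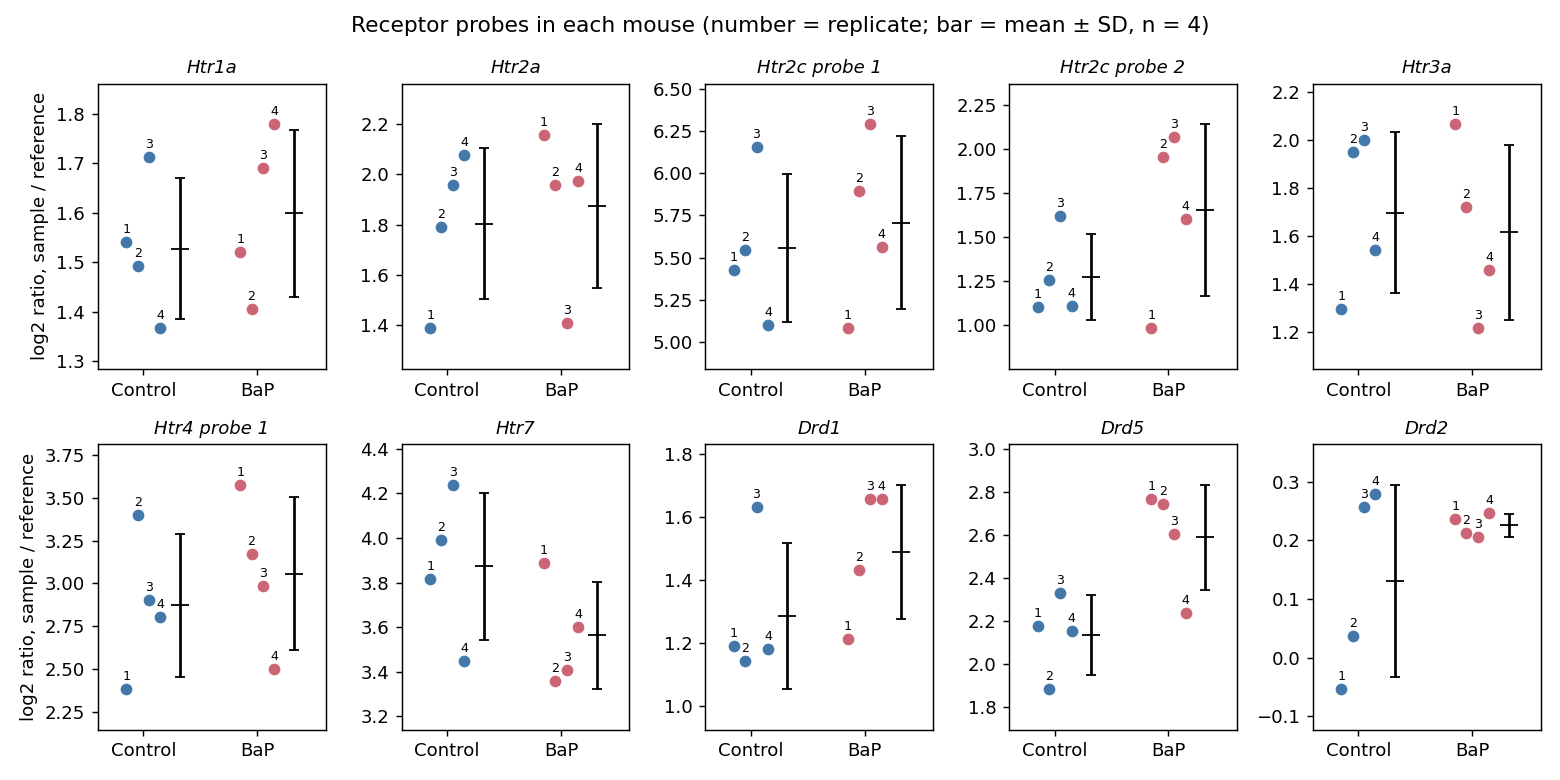
The log2 ratio of sample to reference (vertical axis, with a scale of its own in each panel) of the 10 tested receptor probes in the 4 control mice (blue) and the 4 BaP-exposed mice (red), numbered by replicate, with the mean and SD of each group as a bar. The groups overlap in every panel, and for *Drd5* BaP-exposed mouse 4 at 2.24 is the one that falls below a control mouse.

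*Drd5* encodes the D5 receptor, the D1-like receptor best known in hippocampal neurons. Its log2 ratio was 2.18, 1.88, 2.33 and 2.15 in control mice 1 to 4 and 2.76, 2.74, 2.60 and 2.24 in BaP-exposed mice 1 to 4. BaP-exposed mice 1 to 3 were above all control mice, and BaP-exposed mouse 4 was above control mice 1, 2 and 4 and below control mouse 3. The means were 2.14 ± 0.19 and 2.59 ± 0.24 (SD, n = 4 mice each), a log2 difference of 0.45 with a standard error of 0.14 and a 95% interval of 0.15 to 0.75. The unadjusted p from limma was 0.00741 and the adjusted p was 0.497, while the exact permutation test gave p = 0.0571 (2-sided), where 0.0286 is the smallest that 4 mice against 4 allow. The probe was well above background in Cy5 on all 8 arrays, with a signal 3.37 to 8.31 times its background, and in Cy3 on 0 arrays. In slide row 1 the log2 difference was 0.72 and in row 2 it was 0.18. It was 0.49 in the Cy5 channel alone (adjusted p = 0.631 from limma). With the conflicting arrays grouped by source name it was 0.27, and with the log ratios of the scanner software it was 0.0060. Leaving out 1 mouse at a time gave 0.37 to 0.57.

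The other D1-like receptor gene, *Drd1*, had log2 ratios of 1.19, 1.14, 1.63 and 1.18 in control mice and 1.21, 1.43, 1.66 and 1.66 in BaP-exposed mice. Control mouse 3 stood with the highest BaP-exposed mice, and BaP-exposed mouse 1 stood with the other control mice. The log2 difference was 0.20 with a 95% interval of -0.10 to 0.51 (adjusted p = 0.678 from limma). It was 0.15 to 0.32 with 1 mouse left out, the latter without control mouse 3, and it was 0.06 in the Cy5 channel alone, 0.12 with the scanner's log ratios and 0.73 with plain background subtraction. *Drd2*, the D2-like receptor gene, read -0.05, 0.04, 0.26 and 0.28 in control mice and 0.24, 0.21, 0.21 and 0.25 in BaP-exposed mice. Its BaP-exposed values were packed within the control range, and its interval ran from -0.11 to 0.30 around a log2 difference of 0.10. That difference was 0.034 without control mouse 1 and 0.15 without control mouse 4. The *Drd1* and *Drd2* probes were dim, with a Cy5 signal 2.0 to 2.99 and 1.56 to 2.18 times the background. All 3 dopamine receptor genes had a higher mean in BaP-exposed mice, but the log2 difference of *Drd2* was 0.23 in slide row 1 and -0.04 in row 2. That of *Drd1* was 0.16 and 0.25.

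*Htr7* encodes a Gs-coupled serotonin receptor. Its log2 ratio was 3.82, 3.99, 4.24 and 3.45 in control mice and 3.89, 3.36, 3.41 and 3.60 in BaP-exposed mice. BaP-exposed mice 2 to 4 were below control mice 1 to 3, control mouse 4 fell among them, and BaP-exposed mouse 1 lay within the control range. The log2 difference was -0.31 (0.81-fold) with a standard error of 0.17 and a 95% interval of -0.69 to 0.07 (unadjusted p = 0.0997 and adjusted p = 0.623 from limma). The difference was -0.28 in slide row 1 and -0.34 in row 2. In the Cy5 channel alone it was -0.35, with an unadjusted p of 0.029 and an adjusted p of 0.632 from limma. It was -0.18 with plain background subtraction, -0.15 with the scanner's log ratios, -0.13 with median centring and 0.03 by source name. With 1 mouse left out it ran from -0.45 without control mouse 4 to -0.19 without control mouse 3. The other Gs-coupled serotonin receptor gene, *Htr4*, read 2.38, 3.40, 2.90 and 2.81 in control mice and 3.57, 3.17, 2.98 and 2.50 in BaP-exposed mice on the probe that was tested. The groups spanned almost the same range, and the log2 difference of 0.19 had a 95% interval of -0.36 to 0.73. It was 0.48 in slide row 1 and -0.11 in row 2, and it ran from 0.014 without BaP-exposed mouse 1 to 0.37 without BaP-exposed mouse 4.

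The Gi-coupled receptors were represented by *Htr1a*, an abundant postsynaptic receptor of hippocampal pyramidal cells, and by *Htr1b*, found on axon terminals. *Htr1a* read 1.54, 1.49, 1.71 and 1.37 in control mice and 1.52, 1.40, 1.69 and 1.78 in BaP-exposed mice. These ranges overlapped almost wholly, and the log2 difference was 0.07 with a 95% interval of -0.17 to 0.31. It was -0.05 in slide row 1 and 0.20 in row 2, and 0.011 to 0.14 with 1 mouse left out (without BaP-exposed mice 4 and 2). The probe of *Htr1b* was well above background on 1 of 8 arrays, from a BaP-exposed mouse, with a Cy5 signal 1.14 to 1.497 times the background, so no difference between the groups could be measured there.

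*Htr3a*, the channel subunit, is typical of a class of hippocampal interneurons. It read 1.30, 1.95, 2.0001 and 1.54 in control mice and 2.07, 1.72, 1.21 and 1.46 in BaP-exposed mice, so that each group held both low and high mice. The log2 difference was -0.08 with a 95% interval of -0.53 to 0.37, and its sign turned with the slide row, from 0.27 in row 1 to -0.43 in row 2. The mean of 10 interneuron markers in BaP-exposed mice lay 0.005 above that in control mice (exact permutation test, 2-sided, p = 0.914). *Reln*, also a marker of that list, had no value for control mouse 1 and was left out of the mean, and its log2 difference was -0.30 (unadjusted p = 0.0419 and adjusted p = 0.562 from limma).

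**Figure D2:**
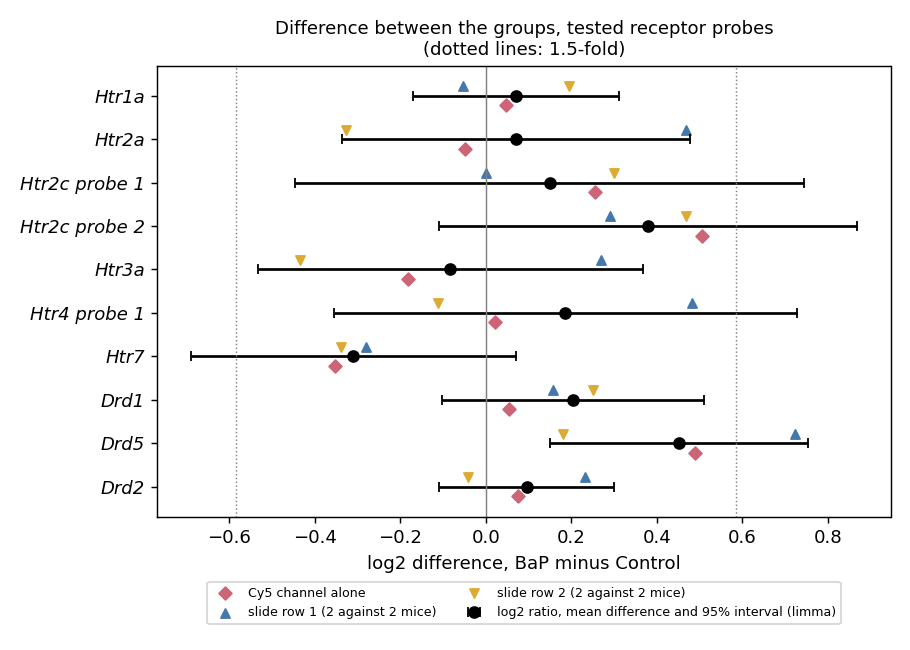
The log2 difference between BaP-exposed and control mice (horizontal axis) for the 10 tested receptor probes, with the 95% interval from limma (black), the Cy5 channel alone (diamonds) and each slide row on its own (triangles, 2 mice against 2). The *Drd5* interval lies above 0, the other 9 intervals include 0, and the rows differ in sign for *Htr1a*, *Htr2a*, *Htr3a*, *Htr4* and *Drd2*.

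The Gq-coupled *Htr2a*, the receptor on which classical hallucinogens act, read 1.39, 1.79, 1.96 and 2.08 in control mice and 2.16, 1.96, 1.41 and 1.97 in BaP-exposed mice. Control mouse 1 and BaP-exposed mouse 3 were low, and the others overlapped. The log2 difference was 0.07 with a 95% interval of -0.34 to 0.48. It was 0.47 in slide row 1 and -0.33 in row 2.

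*Htr2c* was measured by 2 tested probes. The brighter read 5.43, 5.55, 6.15 and 5.10 in control mice and 5.08, 5.89, 6.29 and 5.57 in BaP-exposed mice, with a log2 difference of 0.15 and a 95% interval of -0.45 to 0.75. The dimmer read 1.104, 1.26, 1.62 and 1.11 in control mice and 0.98, 1.96, 2.07 and 1.602 in BaP-exposed mice, with a log2 difference of 0.38 and a 95% interval of -0.11 to 0.87 (adjusted p = 0.641 from limma). The brighter probe differed by 0.00054 in slide row 1 and 0.30 in row 2, and by -0.04 without BaP-exposed mouse 3 to 0.36 without BaP-exposed mouse 1. The dimmer differed by 0.29 in row 1 and 0.47 in row 2, and by 0.24 without BaP-exposed mouse 3 to 0.602 without BaP-exposed mouse 1. On both probes BaP-exposed mouse 1 was the lowest mouse and BaP-exposed mouse 3 the highest.

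That order was close to the order of the choroid plexus markers. Their mean was 0.79 in BaP-exposed mouse 1 and 4.28 in BaP-exposed mouse 3, and it was 1.29 in control mouse 4, the next lowest mouse for the brighter *Htr2c* probe. Across the 8 mice that probe and the marker mean had a Pearson r of 0.864 (exact permutation p = 0.00799) and a Spearman rho of 0.905 (exact permutation p = 0.00456). Without control mouse 4 and BaP-exposed mouse 1, the mice farthest from the median marker mean, r was 0.689. Over the 54 relations computed between 9 receptor genes and 6 marker lists, the adjusted p was 0.216 for r and 0.246 for rho (permutation tests with Benjamini-Hochberg adjustment). For *Drd1* and the same markers r was 0.79 (exact permutation p = 0.0319, adjusted 0.391) and rho was 0.762 (exact permutation p = 0.0368, adjusted 0.331), and r was 0.748 without the same mice. The mean of 8 thalamus markers had a rho of 0.762 with *Drd1* as well (exact permutation p = 0.0368, adjusted 0.331), with an r of 0.696 (exact permutation p = 0.0529, adjusted 0.435) that was 0.35 without BaP-exposed mice 3 and 4. With *Htr2c* its rho was 0.738 (exact permutation p = 0.0458, adjusted 0.354) and its r 0.655 (exact permutation p = 0.0792, adjusted 0.435), or 0.488 without those mice. With *Htr3a* the thalamus markers ran the other way, with an r of -0.749 (exact permutation p = 0.0362, adjusted 0.391) and a rho of -0.786 (exact permutation p = 0.0279, adjusted 0.331), and r was -0.517 without those mice. These thalamus means were -0.15 to 0.02 in control mice and -0.16 to 0.28 in BaP-exposed mice, with BaP-exposed mice 2 to 4 above all control mice (difference 0.17, exact permutation test, 2-sided, p = 0.171). Of the 8 markers 6 had a higher mean in BaP-exposed mice (49.5% of all probes did), and 2 (25%, against 8.7% of all probes) had an unadjusted p under 0.05 in limma, *Ramp3* and *Synpo2*, with log2 differences of 0.43 and 0.34 and adjusted p from limma of 0.530 and 0.510. The correlations with the markers pool both groups, so a difference between the groups enters r and rho. A group or a slide row holds 4 mice, too few for a value within either. The part of choroid plexus or thalamus RNA in the *Htr2c* and *Drd1* differences was not tested.

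**Figure D3:**
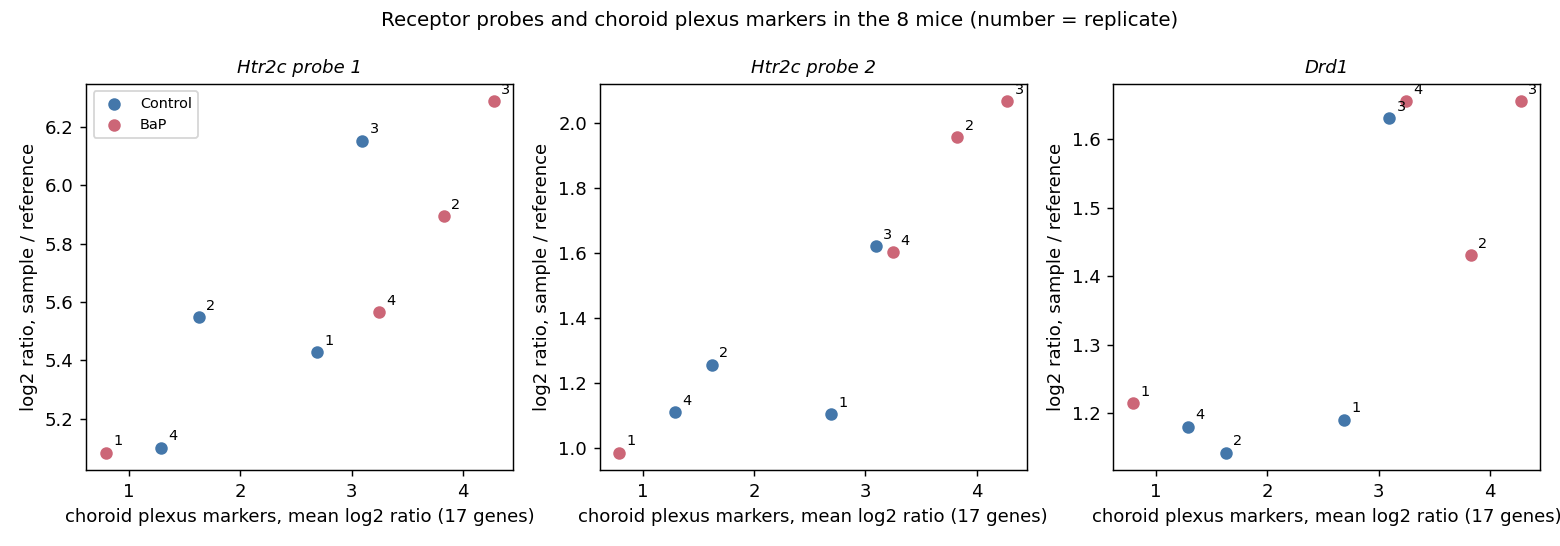
The log2 ratio of both tested *Htr2c* probes and of *Drd1* (vertical axes) against the mean log2 ratio of 17 choroid plexus markers (horizontal axis) in the 8 mice, with control mice in blue and BaP-exposed mice in red, numbered by replicate. BaP-exposed mice lie at both ends of the marker range of 0.79 to 4.28, BaP-exposed mice 2 to 4 (3.25 to 4.28) lie above the highest control mouse (3.09), and the brighter *Htr2c* probe goes up with the markers (r = 0.864).

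*Drd5* was compared with the marker lists in the same way, with both groups pooled. Its r with the hippocampal neuron markers was 0.822 (exact permutation p = 0.0173, adjusted 0.312) and its rho was 0.714 (exact permutation p = 0.0576, adjusted 0.389). Without BaP-exposed mice 1 and 2, r was 0.53. Among the control mice, mouse 2 had the highest marker mean (3.64) and the lowest *Drd5* value (1.88). Among the BaP-exposed mice, mouse 4 was the lowest in both (3.49 and 2.24). With the choroid plexus markers the r of *Drd5* was 0.281 (exact permutation p = 0.485, adjusted 0.758) and its rho was 0.262 (exact permutation p = 0.536, adjusted 0.828), but r was 0.933 without control mouse 4 and BaP-exposed mouse 1. *Htr4* had an r of 0.708 (exact permutation p = 0.0573, adjusted 0.435) and a rho of 0.786 (exact permutation p = 0.0279, adjusted 0.331) with the hippocampal neuron markers, and r was 0.505 without BaP-exposed mice 1 and 2. *Dsp*, a marker of dentate granule cells, had a log2 difference of 1.02 (adjusted p = 0.51 from limma). *Dsp* and *C1ql2* (0.56) had the largest differences of the 7 averaged markers, while *Fibcd1* and *Neurod2* had -0.03 and -0.12. *Grik4*, a kainate receptor subunit of CA3 cells that is not in the average, had one of -0.65, and its 3 control values lay above its 4 BaP-exposed values (adjusted p = 0.365 from limma). The part of cell makeup in the *Drd5* difference was not tested. *Drd2* had its highest r with the interneuron markers, at 0.811 (exact permutation p = 0.00367, adjusted 0.198), with a rho of 0.857 (exact permutation p = 0.0107, adjusted 0.289) and an r of 0.737 without control mice 1 and 3. Striatal tissue, which is rich in *Drd1* and *Drd2*, was looked for with 9 markers. Over the 7 that were averaged, the mean log2 ratio was 0.88 to 1.04 in control mice and 0.55 to 0.97 in BaP-exposed mice (exact permutation test, 2-sided, p = 0.286). *Adora2a*, which marks striatal neurons that carry *Drd2*, had a mean of -0.13 in control and -0.17 in BaP-exposed mice. The mean of 6 neocortex markers was 1.85 to 2.19 in control mice and 1.62 to 2.23 in BaP-exposed mice, a difference of -0.19 (exact permutation test, 2-sided, p = 0.314). Of these 6, 5 had a lower mean in BaP-exposed mice and 0 had an unadjusted p under 0.05 in limma, and the largest log2 difference was that of *Nr4a2*, at -0.55 (adjusted p = 0.584 from limma). The neocortex mean had its highest r with *Htr7*, at 0.647 (exact permutation p = 0.0885, adjusted 0.435), with a rho of 0.667 (exact permutation p = 0.0831, adjusted 0.449) and an r of 0.822 without BaP-exposed mice 3 and 4. The part of tissue from other regions in the receptor differences was not tested.

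The genes whose log2 ratios followed a receptor most closely over the 8 mice were looked up among 13799 other genes, as a description. The compared points share their arrays. Over the 3 closest genes of each of the 9 receptors, r was 0.936 to 0.993, and 0.633 to 0.991 without the 2 mice farthest from the receptor's median. The closest genes of 4 receptors are named, with r in all 8 mice and then without those 2. For *Drd5* they were *Mri1* (r = 0.972 and 0.937), an enzyme of methionine salvage, *Mrps17* (r = 0.971 and 0.974), a mitochondrial ribosomal protein, and *Minpp1* (r = 0.97 and 0.953), an inositol phosphatase. For *Htr2c* they were *Cep41* (r = 0.966 and 0.965), a ciliary and centrosomal protein, *Slc12a7* (r = 0.963 and 0.916), a potassium chloride cotransporter, and *Txlnb* (r = 0.963 and 0.939). For *Drd1* they were *Oat* (r = 0.965 and 0.983), *Cntn4* (r = 0.949 and 0.928) and *Trib2* (r = 0.945 and 0.936), and for *Htr4* they were *Pik3c3* (r = 0.977 and 0.991), *Kcnip2* (r = 0.971 and 0.963) and *Cacng4* (r = 0.97 and 0.971).

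A list of 80 other serotonin and dopamine genes covered the remaining receptors, the enzymes and transporters of both transmitters and the signaling proteins after the receptors. Of these, 71 were tested, 34 with a higher and 37 with a lower mean in BaP-exposed mice, and their median log2 difference was -0.0049. In limma's test 0 passed the threshold, the lowest adjusted p being 0.51, as did 0 in the gene-wise F test, and 8 genes (11.3%, against 8.7% of all probes) had an unadjusted p under 0.05. The groups did not overlap for 2 of the 71, where this held for 5.07% of all probes.

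Among the other receptors, *Htr1f*, *Htr5b* and *Drd4* had log2 differences of 0.21, 0.14 and 0.12 (0.05, 0.45 and 0.24 in slide row 1, and 0.36, -0.16 and -0.0023 in row 2), and *Htr6* one of -0.07 (0.0013 in row 1 and -0.14 in row 2), with adjusted p from limma between 0.651 and 0.885. The difference was 0.095 for *Htr1f* without BaP-exposed mouse 3, -0.020 for *Htr5b* and 0.034 for *Drd4* without BaP-exposed mouse 1, and 0.0038 for *Htr6* without control mouse 2. *Htr1d*, *Htr2b*, *Htr3b*, *Htr5a* and *Drd3* were well above background on at most 2 of 8 arrays and were not tested. The same was true of *Tph2*, which makes serotonin in raphe neurons, and of *Slc6a4* and *Slc6a2*, the serotonin and noradrenaline transporters, whose transcripts are found mainly in cell bodies outside the hippocampus. Of 10 tested genes of synthesis and breakdown and 3 tested transporters, 0 had an unadjusted p under 0.05 in limma, where 8.7% of all probes did.

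The 18 G proteins and their regulators held 4 genes with an unadjusted p under 0.05 (22.2%, against 8.7% of all probes). *Gnal*, the alpha subunit that carries D1 receptor signals in striatum, had a log2 difference of -0.22, and *Rgs9* and *Rgs4*, which shorten G protein signals, had -0.37 and -0.42. *Rgs4* was measured on 7 arrays, because its spot on the array of control mouse 1 was an outlier, and its log2 difference was -0.25 with outlier spots kept, -0.22 in the authors' table, -0.12 with median centring of the arrays and -0.30 without control mouse 4 (-0.54 at most with 1 mouse left out). Slide row 1 gave -0.17 and row 2 -0.57. *Rgs9*, also one of the striatal markers above, had -0.23 without control mouse 2, -0.12 with median centring, -0.63 in slide row 1 and -0.11 in row 2. The rows gave -0.30 and -0.14 for *Gnal*. *Rgs14*, a regulator found in CA2 neurons, had a log2 difference of 0.36 (0.49 in row 1 and 0.23 in row 2). *Rgs8*, picked out here after its values were seen, had a log2 difference of 0.80 that rested on control mouse 4, which read 1.58 while the other control mice read 5.11 to 5.34. Without that mouse the difference was -0.11.

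Of 24 enzymes and channels after the receptor, 12 were higher and 12 lower, and 2 had an unadjusted p under 0.05 (8.33%, against the same 8.7%). *Pde10a*, a phosphodiesterase that breaks down cyclic AMP and cyclic GMP, read 2.46 to 2.68 in control mice and 2.71 to 3.02 in BaP-exposed mice, without overlap (log2 difference 0.26, adjusted p = 0.53 from limma), with 0.45 in slide row 1 and 0.07 in row 2. *Kcnj6*, a potassium channel subunit opened by Gi-coupled receptors, had a log2 difference of 0.33 with overlapping groups, 0.54 in row 1 and 0.12 in row 2. Of 12 receptor partners and editors, 1 had a higher and 11 a lower mean, where 49.5% of all probes were higher, and 2 had an unadjusted p under 0.05 (16.7%, against 8.7%). *Arrb1*, an arrestin, had a log2 difference of -0.25 (-0.27 in row 1 and -0.22 in row 2). *Adar*, one of the enzymes that edit *Htr2c* RNA, read 1.66 to 1.89 in control mice and 1.501 to 1.58 in BaP-exposed mice, without overlap (log2 difference -0.22, adjusted p = 0.518 from limma), with -0.20 in row 1 and -0.25 in row 2. When arrays were centred on their medians in place of loess, the log2 differences of *Adar*, *Arrb1* and *Gnal* were 0.06, 0.04 and 0.05, and those of *Pde10a*, *Rgs14* and *Kcnj6* were 0.49, 0.59 and 0.40, in a table whose median had moved up by 0.17.

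**Figure D4:**
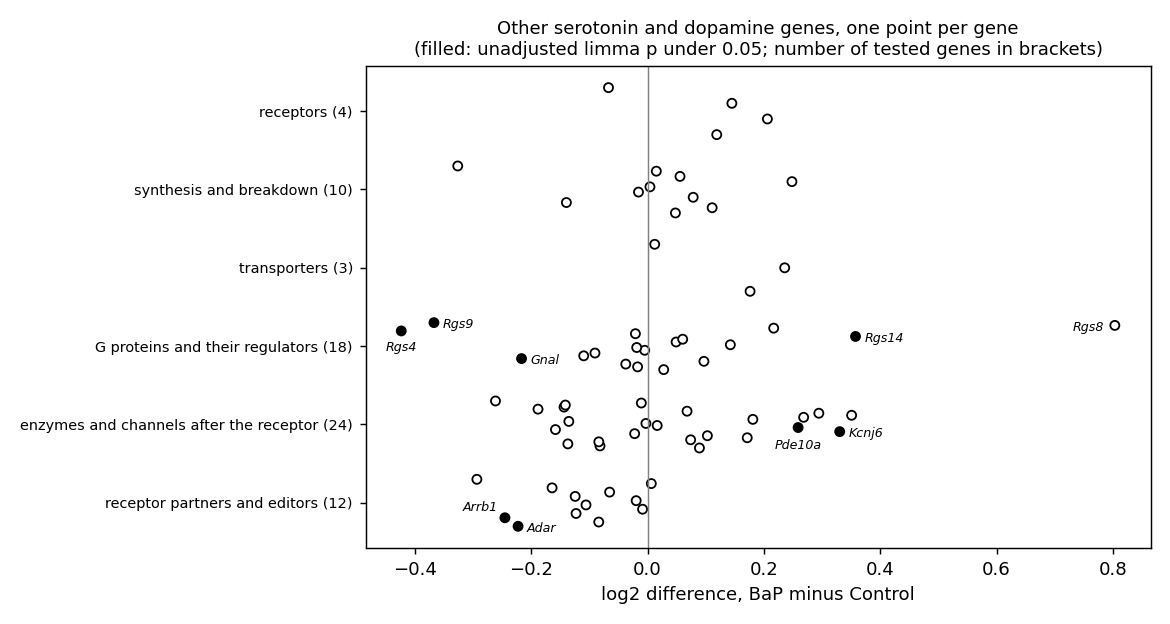
The log2 difference between BaP-exposed and control mice (horizontal axis) for 71 other serotonin and dopamine genes, one point per gene, in rows by role, with filled points for the 8 genes whose unadjusted p from limma is under 0.05. The points lie on both sides of 0 in each row but that of the 3 transporters, which are above 0, 11 of 12 receptor partners and editors lie below it, and *Rgs8* at 0.80 rests on 1 control mouse.

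The receptor differences were set beside their values under 26 alternatives to the processing, the test, the mice and the labels. For *Drd5*, 8 of the 25 with a value of their own left the difference at 0.45, because they changed only the filter, the test, a block, the scale of average intensities or spots other than this one, and their sign shows nothing about stability. In the other 17 it was positive, from 0.0060 to 0.72, and its unadjusted p was under 0.05 in all but 4. These were plain background subtraction, the scanner's log ratios, slide row 2 alone and the grouping by source name. In the authors' own table of log2 ratios, *Drd5* was higher by 0.53 (adjusted p = 0.398 from limma) without overlap of the groups. Without background correction its groups did not overlap either. BaP-exposed mouse 4 and control mouse 3 are the pair that overlaps as reported, so leaving out either one separates the groups, and 10.8% and 9.55% of all probes separated without them. Without control mouse 3 the groups of *Drd1* did not overlap either. In slide row 1, where 2 mice against 2 separate 38.9% of all probes, *Drd5*, *Drd1*, *Drd2* and *Htr2a* separated. In row 2, where 37.1% of all probes separated, *Drd1*, *Drd2* and *Htr3a* did and *Drd5* and *Htr2a* did not, and *Drd2* separated there with the BaP-exposed mice below the control mice.

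**Figure D5:**
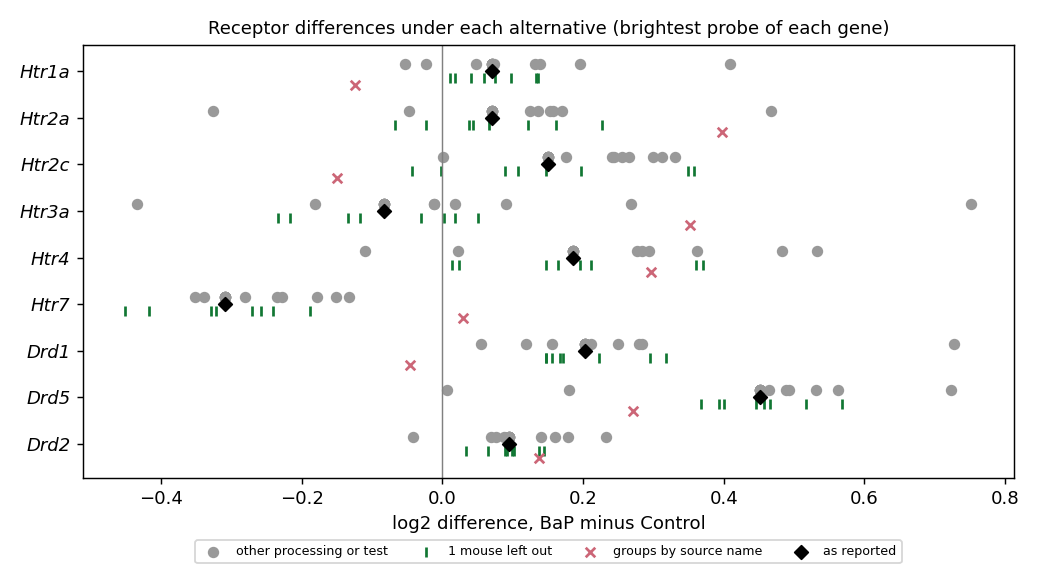
The log2 difference between BaP-exposed and control mice (horizontal axis) of the brightest tested probe of each receptor gene as reported (black diamonds), with other processing or tests (grey points), with 1 mouse left out (green bars) and with groups by source name (red crosses). *Drd5* stays above 0 in all of them, from 0.0060 to 0.72, *Htr7* stays below 0 except by source name (0.03), and *Htr3a* lies on both sides.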

How the data were processed

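RNA from the hippocampus of 4 control and 4 BaP-exposed mice was hybridized in Cy5 against a reference RNA in Cy3 on 8 arrays without a dye swap. The authors deposited scanner intensities of each spot, with background and outlier marks, and the scanner's log10 ratio. The authors also deposited a table of log2 ratios, which their methods describe as LOWESS-normalized. From spot medians, limma 3.58.1 (R 4.3.3) corrected the background by normexp with an offset of 50. Control spots were then dropped and outlier spots set to missing, and log2 ratios were normalized by loess within each array. A probe was tested if its Cy5 signal was well above background on at least 4 arrays. Tests used lmFit and eBayes, with p-values adjusted after Benjamini and Hochberg over all tested probes, and the threshold joined an adjusted p of 0.05 to a 1.5-fold change. The methods' analysis of variance was replaced by limma, with a gene-wise F test as an alternative. The brightest tested probe stood for a gene. Exact permutation tests covered the 70 possible assignments of arrays to groups, or all orders of the mice for a correlation. Of 28685 probes with a RefSeq accession, 27235 were named.

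The receptors and gene lists were chosen with earlier results of these data known. All receptors are named. Of the other genes, those with an unadjusted p under 0.05 or without overlap of the groups and the other receptors are named, with *Rgs8* added after its values were seen. The alternatives for genes outside the receptor set and for the dimmer *Htr2c* probe were added after the data were seen. Tables were summarized with scipy 1.17.1, numpy 2.4.6 and pandas 2.3.3 (Python 3.11.15), and the fits were tested on simulated data. RNA-seq and other data of the study were not analysed here. The values of 1 striatal marker are not reported here.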

Additional observations from a re-analysis of the deposited data

Results flagged for a closer look

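In 57 groups of 4 mice examined for a mouse far from the others, 5 held one, where about 2.85 would be expected at 1 in 20. *Rgs8* was among these genes after its values were seen, and *Pde10a* and *Kcnj6* because of their p in these data. The 5 can therefore not be weighed against the 2.85. The measure is the gap to the nearest mouse over the whole range of the group. *Drd1* was at 1.63 in control mouse 3 and at 1.14 to 1.19 in control mice 1, 2 and 4 (0.901). *Htr5b* in BaP-exposed mouse 1 was at 3.29, against 2.57 to 2.69 (0.834). *Rgs8* in control mouse 4 was at 1.58, against 5.11 to 5.34 (0.94). *Pde10a* in control mouse 2 was at 2.46, against 2.64 to 2.68 (0.843). *Kcnj6* in control mouse 1 was at 1.97, against 2.21 to 2.23 (0.891).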

How the results depend on the processing

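The number of arrays and the dim signal of most receptor probes limit what could be measured. No receptor gene passed the threshold of limma's test under any alternative, and 72 of the 226 receptor values under alternatives repeat the reported value, since the setting did not touch it. Of the other 154, 132 kept their sign and 22 turned. The paper reports more transcripts past the same cut-offs at this dose on its microarrays, with its own analysis of variance. In the fit used here, 3 passed over all probes. The count was 0 with plain background subtraction, with the gene-wise F test, by source name, in slide row 1 only, in slide row 2 only and with the scanner's log ratios, 5 with no filter on dim probes and 6 with the robust fit or the Cy5 channel alone. It was 1 to 3 with 1 mouse left out, and 1 without BaP-exposed mouse 2 or control mouse 1, 3 or 4. Same-numbered mice of the 2 groups did not deviate together (correlations of -0.35, 0.03, -0.01 and -0.01, and 0 of the mice were closest to their own number). With the replicate number as a block, 2 probes passed over the whole array and 1 receptor gene (*Drd5*) had an unadjusted p under 0.05, as 7.3% of all probes did.

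The count of receptor genes with an unadjusted p under 0.05, 1 as reported, was 0 with plain background subtraction, the scanner's log ratios and slide row 2 only (7.9%, 8.11% and 6.14% of all probes). With median centring it was 1 (*Drd5*), against 18.9% of all probes. It was 2 in slide row 1 only (*Drd5* and *Htr2a*), the Cy5 channel alone (*Drd5* and *Htr7*) and the authors' table (*Drd5* and *Drd1*), against 6.94%, 7.82% and 9.28% of all probes, and 1 by source name (*Htr2a*, against 4.39%). Leaving out 1 mouse gave 1 to 2, against 5.28% to 10.7%, with *Htr7* added without BaP-exposed mouse 1 or control mouse 4 and *Drd1* without control mouse 3. The count without overlap, 0 as reported, was 1 (*Drd5*) without background correction and in the authors' table, against 5.43% and 5.27% of all probes. With median centring it was 0, against 9.89%. It was 4 in slide row 1 only and 3 in slide row 2 only, where 2 mice against 2 separated 38.9% and 37.1% of all probes. It was 0 to 2 with 1 mouse left out, against 10.8% of all probes without BaP-exposed mouse 4 and 9.55% without control mouse 3.

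The log2 difference changed sign as follows, and the cause was not tested. By source name it was -0.047 for *Drd1*, -0.12 for *Htr1a*, -0.15 and -0.089 for the *Htr2c* probes, 0.35 for *Htr3a*, 0.030 for *Htr7*, 0.025 for *Adar*, -0.15 for *Htr1f*, 0.068 for *Htr6*, 0.24 for *Rgs4* and -0.78 for *Rgs8*. In slide row 2 only it was -0.042 for *Drd2*, -0.33 for *Htr2a*, -0.11 for *Htr4*, -0.0023 for *Drd4* and -0.16 for *Htr5b*. In slide row 1 only it was -0.054 for *Htr1a*, 0.27 for *Htr3a* and 0.0013 for *Htr6*. With the scanner's log ratios it was -0.023 for *Htr1a*, 0.75 for *Htr3a*, -0.19 for the dimmer *Htr2c* probe and -0.075 for *Htr1f*. In the Cy5 channel alone it was -0.048 for *Htr2a* and 0.026 for *Htr6*. With plain background subtraction it was 0.090 for *Htr3a* and -0.072 for *Htr5b*, and it was 0.017 for *Htr3a* in the log2 ratios of the authors. With each array centred on its median it was 0.059 for *Adar*, 0.040 for *Arrb1* and 0.046 for *Gnal*. With 1 mouse left out it ran from -0.068 to 0.23 for *Htr2a*, from -0.043 to 0.36 for *Htr2c*, from -0.23 to 0.050 for *Htr3a*, from -0.020 to 0.22 for *Htr5b*, from -0.16 to 0.0038 for *Htr6* and from -0.11 to 1.14 for *Rgs8*.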
